A study of Capsicum annuum and Capsicum chinense and Capsicum annuum var. glabriusculum with 33 samples.

Results

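Gene expression in pepper flowers was set against that in roots, stems and leaves, using 10 of the 33 libraries of a pepper (Capsicum) series. The libraries were chosen by their organ labels alone, and no fruit was used. The 3 flower libraries were ZL1-Bud, closed buds of the C. annuum inbred line Zunla 1 (ZL1), ZL1-Flower, open flowers of the same line, and Chiltepin-Flower, in which buds and open flowers of the wild pepper chiltepin (C. annuum var. glabriusculum) were mixed. The 7 vegetative libraries were ZL1-Root and ZL1-Stem (developing organs), ZL1-Leaf (mature leaves), HYL-Root, HYL-Stem and HYL-Leaf (seedlings of the C. chinense line HYL) and Chiltepin-Leaf, a mix of leaves from 4 growth phases between seedling and ripening fruit. The labels name no treatment. Every organ of every line was 1 library, HYL had no flower library, and chiltepin had no root or stem library. The p-values therefore measure the spread between organs, stages and lines and not between plants.

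A flower bud holds organs that no root, stem or leaf has, among them anthers, in which pollen forms, and carpels, in which ovules form. By the time the flower opens, the pollen is mature and the petals have expanded. Vegetative organs take up water and salts (root), carry them and support the shoot (stem) and fix carbon (leaf). The table gives 31426 gene IDs without gene names, and 0 of them matched the names in the gene table used here. The organ labels could therefore not be checked against marker genes, and genes are described by where they were high and how high. In bulk samples, fewer cells of a type and less RNA per cell cannot be told apart.

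Values are RPKM as the authors deposited them, a read count divided by the length of the gene model and by the size of the library. The read totals below, and the read counts of single genes, were recovered from the steps between values on the assumption that model lengths are multiples of 3, which the table cannot test. They were 12691809 to 14426161 reads in the 8 libraries of Zunla 1 and HYL, and 29511468 in Chiltepin-Flower and 26855552 in Chiltepin-Leaf. For a gene of 1000 bases, 3 reads correspond to 0.208 to 0.236 RPKM in the 8 shallower libraries and to 0.102 and 0.112 RPKM in the chiltepin flower and leaf. These ranges follow from the read totals of the libraries and are not intervals of error.

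Across the 21790 genes tested, the flower libraries resembled each other, with Pearson correlations of log2(RPKM + 1) of 0.827 or more across genes. Their correlations with vegetative libraries were between 0.454 and 0.737, and the highest was that of Chiltepin-Flower with Chiltepin-Leaf. One library stood apart. Chiltepin-Leaf correlated with the other vegetative libraries at only 0.525 to 0.736, while those 6 correlated among themselves at 0.680 to 0.899. It differs from the other 6 in line, depth and the mixing of growth phases, and these cannot be told apart here. The main counts of called genes are given with and without it. Several other results, among them the complete separation of groups and the split by flower stage, are given only with it.

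**Figure D1:**
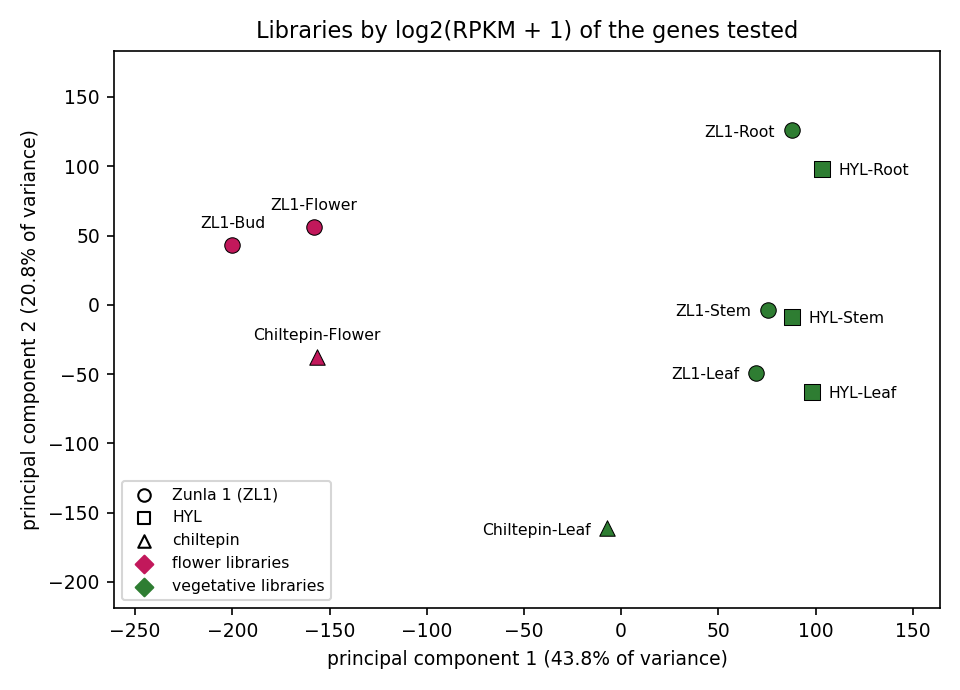
Principal components 1 and 2 (43.8% and 20.8% of the variance) of log2(RPKM + 1) over the 21790 genes tested, 1 point per library, with colour for flower or vegetative and shape for the line. The 3 flower libraries lie at -200.03, -157.98 and -156.72 on component 1 and 6 vegetative libraries between 69.50 and 103.23, with Chiltepin-Leaf between them at -7.09.

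The comparison of flowers with vegetative organs asked which genes mark the flower. With limma on log2(RPKM + 1), 1640 genes were called higher in flowers (7.53% of those tested) and 1164 lower (5.34%), at a Benjamini-Hochberg adjusted p under 0.05. The rises were large. Their median log2 fold change was 3.76, 1391 were at least 4-fold and 759 (46.3%) at least 16-fold. The falls were smaller, with a median log2 fold change of -1.72, and 12 of them (1.03%) reached 16-fold. Fold changes here were computed from log2(RPKM + 1), and for low genes the added 1 makes them too small. The genes called higher in flowers had a median of their means of 52.4 RPKM in flowers and 0.700 RPKM in vegetative organs, and 600 of them (36.6%) were under 1 RPKM in all 7 vegetative libraries. The genes called lower had a median of 5.61 RPKM in flowers and 24.1 RPKM in vegetative organs, and 61 of them (5.24%) were under 1 RPKM in all 3 flower libraries. Over all genes tested these medians were 9.02 RPKM in flowers and 12.4 RPKM in vegetative organs.

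The flower genes made up a large part of the measured RNA. Together the 1640 genes held 41.9% of the summed RPKM in ZL1-Bud, 39.2% in ZL1-Flower and 26.5% in Chiltepin-Flower, against 0.956% to 2.48% in the vegetative libraries, with a median of 1.19%. Chiltepin-Leaf had the highest of the vegetative shares. The 1164 genes called lower held 1.07%, 1.53% and 1.51% in ZL1-Bud, ZL1-Flower and Chiltepin-Flower, against 2.99% (Chiltepin-Leaf) to 9.86% (HYL-Leaf) in vegetative organs. These shares describe genes chosen on the same values, so no test was made. Of the flower genes 274 were at 100 RPKM or more in all 3 flower libraries and 40 at 1000 RPKM or more. The 10 with the highest mean held 7.01% of the summed RPKM in ZL1-Bud, 4.31% in ZL1-Flower and 6.13% in Chiltepin-Flower, against 0.00222% (HYL-Root) to 1.01% (Chiltepin-Leaf) in vegetative organs. Genes at 1 RPKM or more numbered 18724, 18865 and 19025 in ZL1-Bud, ZL1-Flower and Chiltepin-Flower, a mean of 18871 ± 151 (SD, n = 3), against 18905 ± 551 (SD, n = 7) in vegetative organs. The difference of -33.67 genes had an exact two-sided permutation p of 0.917, where the smallest p possible is 0.0167, so it was within the spread between libraries. At a limit of 5 RPKM flowers had 12895, 12850 and 13524 genes in ZL1-Bud, ZL1-Flower and Chiltepin-Flower, against 12526 (Chiltepin-Leaf) to 14559 (HYL-Root) in vegetative organs. The 3 flower libraries were below the other 6 vegetative libraries and above Chiltepin-Leaf, and the difference of -929.6 genes had an exact two-sided permutation p of 0.0833.

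**Figure D2:**
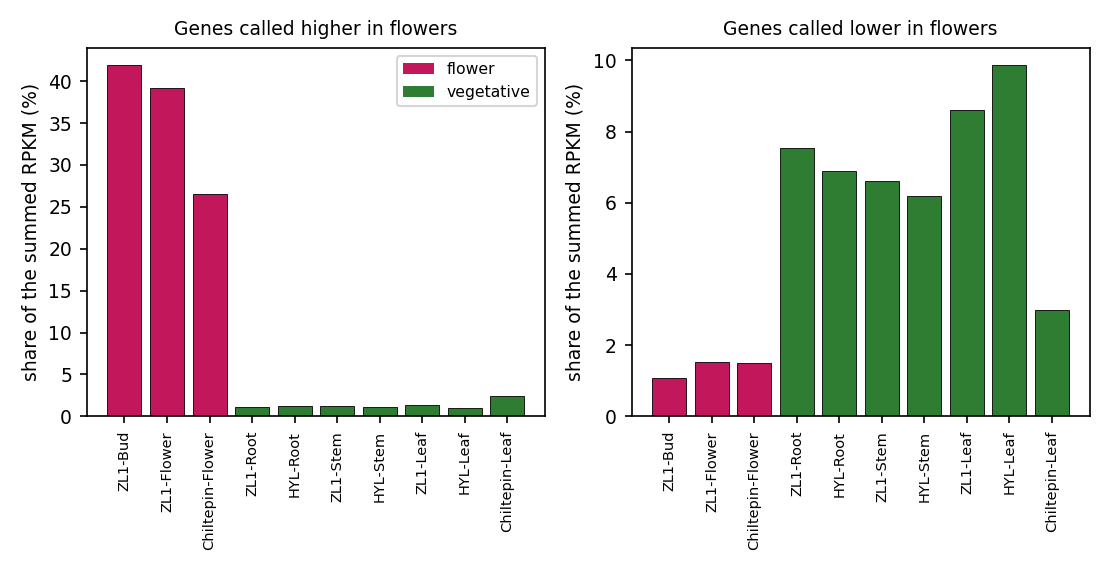
Share of the summed RPKM of each library (vertical axis, %) held by the 1640 genes called higher (left) and the 1164 called lower in flowers (right), 1 bar per library and with no error since each is 1 library. The higher genes take 26.5% to 41.9% in the 3 flower libraries and at most 2.48% in the vegetative ones, and Chiltepin-Leaf has the lowest vegetative share of the lower genes, 2.99%.

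The gene with the largest rise, Capana04g001678, was at 11513 RPKM in ZL1-Bud, 11225 RPKM in ZL1-Flower and 8816 RPKM in Chiltepin-Flower. In vegetative organs it was listed at 0 in ZL1-Root, HYL-Stem, ZL1-Leaf and HYL-Leaf, with 0.148 RPKM in HYL-Root, 4.39 RPKM in ZL1-Stem and 12.7 RPKM in Chiltepin-Leaf. All flower libraries thus lay far above every vegetative library, and of these ZL1-Stem and Chiltepin-Leaf were the highest. Its log2 fold change was 12.44 (limma, SE 0.811, adjusted p = 5.20e-07). The second, Capana08g000016, was at 6966, 6762 and 3821 RPKM in ZL1-Bud, ZL1-Flower and Chiltepin-Flower, against a vegetative range of 0 to 5.53 RPKM with a median of 0.0928 RPKM. Again Chiltepin-Leaf (5.53 RPKM) and ZL1-Stem (1.48 RPKM) were the highest vegetative libraries. Its log2 fold change was 11.81 (limma, SE 0.583, adjusted p = 5.89e-08).

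Among the falls, Capana06g000460 was listed at 0 in ZL1-Bud and was at 2.58 RPKM in ZL1-Flower and 0.600 RPKM in Chiltepin-Flower. In vegetative organs it was at 127 and 92.3 RPKM in the roots of Zunla 1 and HYL, 381 and 118 RPKM in their stems, 37.8 and 38.7 RPKM in their leaves, and 3.41 RPKM in Chiltepin-Leaf. The groups did not overlap, but the value of Chiltepin-Leaf came close to that of ZL1-Flower. The log2 fold change was -5.12 (limma, SE 1.07, adjusted p = 0.00842). The call was lost without ZL1-Bud (adjusted p = 0.0661, limma), without HYL (0.0700) and with leaf as the only vegetative organ (0.0528). Capana01g001335 was at 0.436, 2.34 and 0.497 RPKM in ZL1-Bud, ZL1-Flower and Chiltepin-Flower, against 22.6 to 234 RPKM in vegetative organs, with a median of 66.4 RPKM. HYL-Leaf and HYL-Stem (195 RPKM) were the highest. Its log2 fold change was -5.11 (limma, SE 0.719, adjusted p = 0.000437), and its call held in each alternative run.

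**Figure D3:**
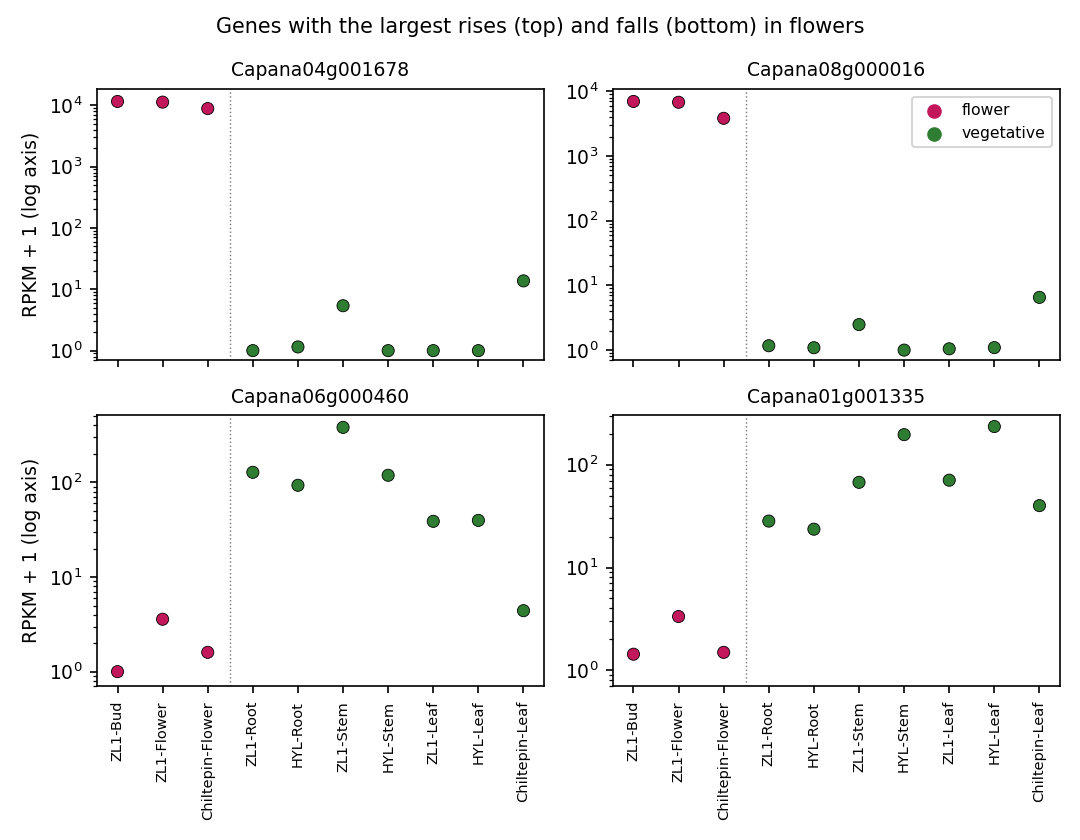
RPKM + 1 on a log axis of the 2 genes with the largest rise (top) and the 2 with the largest fall (bottom) in each of the 10 libraries, 1 point per library, flowers left of the dotted line. The rises are at 3821 RPKM or more in flowers and at most 12.7 RPKM in vegetative organs, and the falls are at most 2.58 RPKM in flowers.

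The rises and the falls differed in how firmly they stood. Leaving out 1 library left between 1253 (without ZL1-Bud) and 1948 genes (without Chiltepin-Leaf) called higher. The count of falls was 115 without ZL1-Bud, 365 without ZL1-Flower, 651 without Chiltepin-Flower, 1015 without ZL1-Root, and between 635 and 736 without any 1 of HYL-Root, ZL1-Stem, HYL-Stem, ZL1-Leaf and HYL-Leaf. Without Chiltepin-Leaf it was 3924. This library had the lowest vegetative value for 679 of the 1164 falls and the highest for 484 of the 1640 rises. The deposited scale also mattered. The median gene was 0.49 log2 units lower in flowers, and median-of-ratios scaling moved that median by 0.49, to 0.00. With scaling, 2293 genes were higher and 371 lower, so rises made up 86.1% of the calls in place of 58.5%. Of the 1640 rises 1637 (99.8%) were called again with scaling, and of the 1164 falls 371 (31.9%). With scaling and without Chiltepin-Leaf, a pair of changes tried only once the values were known, 2794 genes were higher and 838 lower.

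Line entered the comparison unevenly, because HYL was present in vegetative organs and not in flowers. Without HYL, 1221 genes were higher and 161 lower in flowers, and 1203 of the first (73.4% of the 1640) were the same genes. With the line as a term in the model 1520 were higher and 568 lower. Without chiltepin, which leaves the 8 libraries of the shallower depth, 1775 were higher and 2601 lower. How well HYL reads match these gene models, next to Zunla 1 reads, was not tested. The complete separation of groups was also counted. All 3 flower libraries lay above all 7 vegetative ones for 1492 of the 1640 rises and 7.64% of all genes tested, and below all of them for 911 of the 1164 falls and 8.96% of all genes tested.

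The vegetative organs were then taken one by one in a fit with organ as the factor (3 flower, 2 root, 2 stem and 3 leaf libraries, 23115 genes). Flowers were higher than root in 1562 genes (6.76%) and lower in 1949 (8.43%), higher than stem in 1270 (5.49%) and lower in 639 (2.76%), and higher than leaf in 1634 (7.07%) and lower in 1193 (5.16%). The number above each of the 3 organs was 1101 (4.76%), of which 1085 were also among the 1640 rises. The number below each of them was 86 (0.372%). Falls were thus mostly against a single organ, with 1533 genes lower than root alone and 895 lower than leaf alone. Being called against 1 organ and not another is no test of a difference between organs, and none was made. Some 34 genes were higher than 1 organ and lower than another.

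Those counts of falls again turned on single libraries and on the scale. Without Chiltepin-Leaf, flowers were lower than root in 3450 genes, than stem in 2075 and than leaf in 3808, and below each of the 3 in 798. With scaling the falls were 1096, 273 and 754, and 26 below each. Leaving out Chiltepin-Flower left 84 below each, near the 86 found with all libraries. The number below each organ was 8 without ZL1-Bud, 41 without ZL1-Flower, 18 and 15 without ZL1-Root and HYL-Root, 23 and 27 without ZL1-Stem and HYL-Stem, and 27 and 33 without ZL1-Leaf and HYL-Leaf. The number above each of the 3 organs ranged from 753 (without ZL1-Stem) to 1230 (without Chiltepin-Leaf). Where an organ was left with 1 library, that library was assumed to vary like the others.

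Within the flower genes, the closed bud was compared with the open flower of Zunla 1. Each was 1 library, so there is no test, and a 4-fold difference on the log2(RPKM + 1) scale was used to describe them. The bud was at least 4-fold above the open flower in 204 of the 1640 genes (12.4%), against 3.19% of all genes tested. The open flower was at least 4-fold above the bud in 56 (3.41%), against 3.07% of all genes tested, a share near that background. Most flower genes were close in both, with 941 (57.4%) within 2-fold. Differences of at least 16-fold were seen in 52 genes towards the bud and 5 towards the open flower. The lean towards the bud was thus found in the upper part of the distribution. The median log2 difference of bud minus open flower was 0.18 and the upper quartile 1.19 among flower genes, against -0.01 and 0.54 among all genes tested. Among the 1164 genes lower in flowers, 1 was at least 4-fold above the open flower in bud and 25 (2.15%) were at least 4-fold above bud in the open flower.

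The bud genes were abundant as a group. The 204 held 7.89% of the summed RPKM of ZL1-Bud, against 0.722% in ZL1-Flower, with medians of 101 RPKM and 9.28 RPKM. The 56 genes of the open flower held 0.244% in ZL1-Bud and 1.48% in ZL1-Flower, with medians of 19.8 RPKM and 119 RPKM. The fit counts a difference between flower libraries as spread, which can make genes of a single stage harder to call. Among genes in which all flower libraries lay above all vegetative ones, 159 of 161 with a 4-fold excess in bud and 47 of 47 with one in the open flower were called. Over all 1665 genes with that separation, 1492 were called. The separation itself keeps out genes that are low in the other stage. These counts therefore cannot show whether genes of a single stage were lost. In a list that used neither Zunla 1 flower library, the 1966 genes at least 4-fold higher in Chiltepin-Flower than in Chiltepin-Leaf, 221 (11.2%) were 4-fold higher in bud and 153 (7.78%) in the open flower. Both shares were above those of all genes tested (3.19% and 3.07%), so in that list the open-flower share was not near the background. The excess of bud genes over open-flower genes was smaller there.

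**Figure D4:**
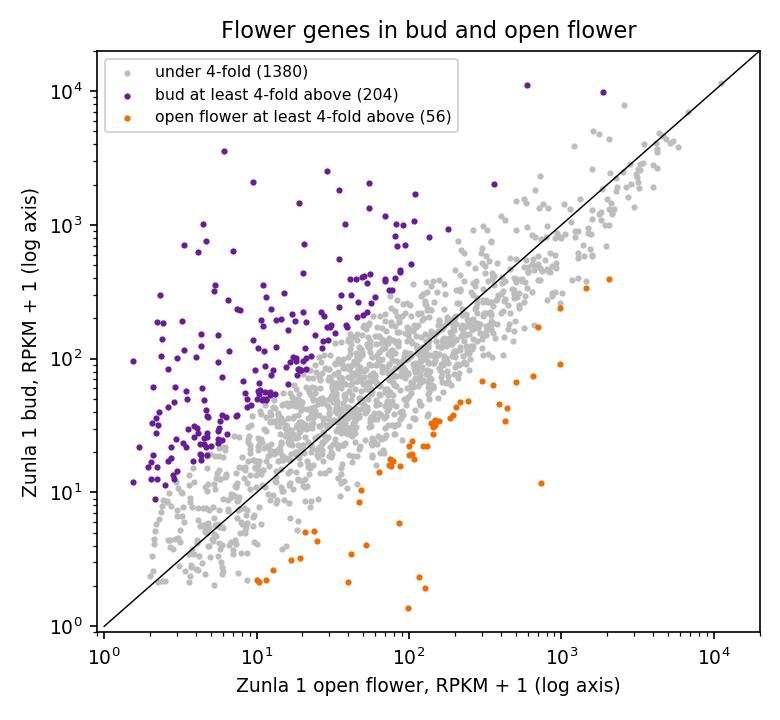
Each point is 1 of the 1640 genes called higher in flowers, with RPKM + 1 in Zunla 1 open flower on the horizontal and in Zunla 1 bud on the vertical log axis, and the line of equal values. The 204 genes at least 4-fold higher in bud lie above the line and the 56 at least 4-fold higher in the open flower below it.

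The largest bud excess was that of Capana06g000289, with 3558 RPKM in ZL1-Bud and 5.11 RPKM in ZL1-Flower, a log2 difference of 9.19. It was at 1214 RPKM in Chiltepin-Flower, the mix of both stages, and at most 1.78 RPKM (Chiltepin-Leaf) in vegetative organs, where HYL and ZL1-Root were listed at 0. Capana08g002091 followed with 1021 RPKM in ZL1-Bud, 3.46 RPKM in ZL1-Flower and 118 RPKM in Chiltepin-Flower, against at most 0.628 RPKM in vegetative organs. Their log2 fold changes between flowers and vegetative organs were 7.88 (limma, SE 1.47, adjusted p = 0.00395) for Capana06g000289 and 6.21 (limma, SE 1.18, adjusted p = 0.00445) for Capana08g002091. Both calls were lost with Zunla 1 alone (adjusted p = 0.127 and 0.121, limma), as was that of Capana06g000289 with leaf as the only vegetative organ (0.0508).

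Towards the open flower, Capana03g004165 was at 0.380 RPKM in ZL1-Bud and 97.5 RPKM in ZL1-Flower, with 21.5 RPKM in Chiltepin-Flower. Its vegetative values were 0 to 1.28 RPKM, so that the bud, with 4 reads, lay within the vegetative range. Capana10g001664 was at 0.940 RPKM in ZL1-Bud (7 reads), 126 RPKM in ZL1-Flower and 237 RPKM in Chiltepin-Flower, against 0 to 3.03 RPKM in vegetative organs. The log2 fold changes of flowers over vegetative organs were 3.50 (limma, SE 0.968, adjusted p = 0.0361) for Capana03g004165 and 4.67 (limma, SE 1.20, adjusted p = 0.0261) for Capana10g001664. Both calls were weak. That of Capana03g004165 held without ZL1-Bud and was lost without any other 1 library (adjusted p between 0.0513 and 0.148, limma), except that without Chiltepin-Leaf the gene missed the filter and was not tested. It was also lost without the filter (0.0513), with line as a term (0.0923), without HYL (0.145), without roots (0.0687) and with leaf as the only vegetative organ (0.184). That of Capana10g001664 was lost without ZL1-Flower (adjusted p = 0.125, limma), Chiltepin-Flower (0.123), HYL (0.146), chiltepin (0.0820) or the roots (0.0539), with line as a term (0.0684), with Zunla 1 alone (0.235) and with leaf as the only vegetative organ (0.125).

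The value of the chiltepin flower mix, which took no part in the bud and open-flower difference, lay between those of the Zunla 1 bud and open flower for 144 of the 204 bud genes (70.6%) and 39 of the 56 open-flower genes (69.6%). For the 941 genes within 2-fold, where the interval is narrow, it lay between them in 91 (9.67%) and below both in 719. The mix was at least 4-fold above Chiltepin-Leaf for 161 bud genes (78.9%) and 50 open-flower genes (89.3%), against 641 (68.1%) of the genes within 2-fold. Chiltepin-Flower was 1 of the libraries that made these genes flower genes, and an interval of 4-fold or more holds a value between its ends more readily, so all these shares are descriptions. Among genes not called higher in flowers, the mix lay between the Zunla 1 values for 322 of 492 (65.4%) with a 4-fold excess in bud and 381 of 613 (62.2%) with one in the open flower, close to the shares among flower genes.

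A smaller set of genes was on in every flower library (5 RPKM or more) and off in every vegetative one (under 1 RPKM). There were 417 such genes, a number set by these limits and not by a test, and all of them are among the 1640 rises. The reverse pattern, 5 RPKM or more in all vegetative organs and under 1 RPKM in all flowers, was met by 1 gene. These limits are not mirror images, since the reverse pattern asks for a gene to be on in root, stem and leaf alike and in more libraries. The counts are therefore not comparable, and genes of a single vegetative organ are left out. Without Chiltepin-Leaf, tried only once the values were known, the numbers were 496 and 2. Of the 417 genes 59 were listed at 0 in all 7 vegetative libraries and 68 were at 100 RPKM or more in all flowers. Their mean flower levels ran from 6.73 to 1567 RPKM with a median of 70.3 RPKM. Together they held 8.06% of the summed RPKM in ZL1-Bud, 7.82% in ZL1-Flower and 2.67% in Chiltepin-Flower. Chiltepin-Flower was the lowest flower library for 340 of them (81.5%), with a median of 26.1 RPKM, against 85.1 RPKM in ZL1-Bud and 76.6 RPKM in ZL1-Flower. By stage, 38 (9.11%) were at least 4-fold higher in bud, 18 (4.32%) in the open flower and 227 (54.4%) were within 2-fold. Among the other 1223 flower genes 166 (13.6%) were 4-fold higher in bud and 38 (3.11%) in the open flower. This difference was not tested, and the minimum of 5 RPKM in every flower library keeps out genes of a single stage.

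The most abundant of the 417, Capana01g003342, was at 2596 RPKM in ZL1-Bud, 1574 RPKM in ZL1-Flower and 530 RPKM in Chiltepin-Flower. It was listed at 0 in 6 vegetative libraries, with 9 reads (0.947 RPKM) in Chiltepin-Leaf. The second, Capana06g000489, was mostly a bud gene, with 2541 RPKM in ZL1-Bud, 28.0 RPKM in ZL1-Flower and 349 RPKM in Chiltepin-Flower, against 0.146 RPKM in ZL1-Stem, 0.420 RPKM in Chiltepin-Leaf and 0 in the other vegetative libraries. Both lay above every vegetative library in all 3 flower libraries, with log2 fold changes of 10.20 for Capana01g003342 (limma, SE 0.474, adjusted p = 4.51e-08) and 8.11 for Capana06g000489 (limma, SE 0.978, adjusted p = 0.000114). The single gene with the reverse pattern, Capana02g003510, was listed at 0 in ZL1-Bud and was at 0.134 RPKM in ZL1-Flower and 0.292 RPKM in Chiltepin-Flower, against 8.77 (Chiltepin-Leaf) to 50.9 RPKM (ZL1-Root) in vegetative organs. Its log2 fold change was -4.01 (limma, SE 0.556, adjusted p = 0.000385).

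Whether the flower genes of the cultivated line are also flower genes in the wild pepper was asked with lists and values that share no library. A fit on Zunla 1 alone (2 flower and 3 vegetative libraries, 21098 genes) called 1258 genes higher in flowers (5.96%) and 657 lower (3.11%). Of the 1258 genes, 1215 (96.6%) were higher in Chiltepin-Flower than in Chiltepin-Leaf, against 56.7% of all genes tested, and 914 (72.7%) were at least 4-fold higher, against 9.20%. Only 3 of them were at least 4-fold lower. Their median log2 difference was 3.42 in chiltepin, against 0.16 for all genes. Of the 657 genes, 436 (66.4%) were lower in Chiltepin-Flower, against 41.8% of all genes tested, and 47 (7.15%) at least 4-fold lower, against 4.59%. Their median log2 difference in chiltepin was -0.27. The scale moved these shares. With median-of-ratios scaling, 94.0% of 1638 rises were higher in Chiltepin-Flower, against 51.0% of all genes, and 87.2% of 86 falls were lower, against 47.6% of all genes. These 657 genes had medians of 6.43 RPKM in ZL1-Bud, 8.70 RPKM in ZL1-Flower and 9.63 RPKM in Chiltepin-Flower, against 37.9 RPKM in ZL1-Leaf and 14 RPKM in Chiltepin-Leaf. The median in Chiltepin-Leaf lay nearer to those in flowers than the median in ZL1-Leaf did. The 657 genes were chosen as high in Zunla 1 vegetative libraries, ZL1-Leaf among them, and no chiltepin library took part. That choice favours such an order of medians, so nothing is read from it about wild against cultivated leaf. Across the 21098 genes the log2 differences of the 2 peppers had a Pearson r of 0.69 and a Spearman rho of 0.48, as a description over genes, which are not independent replicates.

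Many of the most abundant flower genes were seen at low level in some vegetative libraries, and a few were high there. Among the 70 flower genes at 500 RPKM or more in all 3 flower libraries, a limit chosen after the data were seen, all 70 had reads in Chiltepin-Leaf and 64 in ZL1-Stem, against 28 to 37 in the other 5 vegetative libraries. Having any read depends on depth, and Chiltepin-Leaf had 26855552 reads, against 12691809 to 14214777 in the other vegetative libraries. In Chiltepin-Leaf 67 of the 70 genes were at 1 RPKM or more. For most of them the ratio of the leaf to the flower value of chiltepin fell in a narrow band, whose limits were likewise set after seeing the values. For 45 of the 70 genes the leaf value was between 0.1% and 0.3% of the flower value, 1 gene was below that band at 0.0923%, and 24 were above it, up to 49.9%. Among those above it, 14 were at 1% or more, and Capana09g000038 was at 5634 RPKM in Chiltepin-Leaf. The median ratio was 0.205% in the 23 genes of lowest flower level, 0.218% in the next 24 and 0.204% in the 23 of highest level. In ZL1-Stem the median was 0.0252% of the mean of ZL1-Bud and ZL1-Flower, and in ZL1-Root and ZL1-Leaf 0 and 0.00151%. Capana04g001678, for example, had 171 reads in Chiltepin-Leaf and 31 in ZL1-Stem. Whether such reads come from the vegetative organ itself was not tested. They bear on the vegetative level of flower genes and on the count of genes that are off there.

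**Figure D5:**
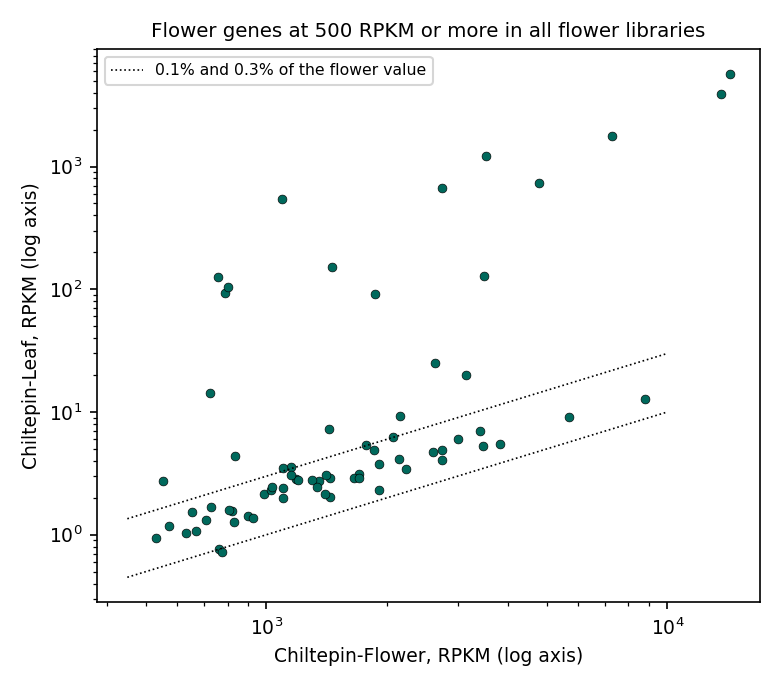
RPKM in Chiltepin-Leaf (vertical) against Chiltepin-Flower (horizontal), both on log axes, for the 70 flower genes at 500 RPKM or more in all 3 flower libraries, 1 point per gene, with dotted lines at 0.1% and 0.3% of the flower value. Between the lines lie 45 genes, 1 is below them and 24 are above.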

How the data were processed

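The authors deposited 1 table of RPKM from strand-specific poly(A) RNA sequencing, per the labels' protocols. For the aligner, counting tool and genome build, the sources used here give no name. Read totals and gene lengths were recovered from the steps between values, with lengths sought among multiples of 3 (tolerance 0.001 reads), and gave lengths for 26186 genes. Comparisons used limma 3.58.1 in R 4.3.3 (lmFit, then eBayes with trend), fitted to log2(RPKM + 1) and tested two-sided, with Benjamini-Hochberg adjustment over all genes tested. Genes had to reach 1 RPKM in at least 3 libraries, or 2 in the organ fit. The scripts were tested on simulated data. Named genes are the 2 largest changes in each direction with at least 10 RPKM in the higher group and no overlap, the 2 largest bud and open-flower differences, and the 2 most abundant genes on in one group and off in the other. The comparison and lists were chosen with earlier results of these data known. Lists by product name were void, since no ID had a name. Alternatives were the pseudocount, filter, scaling, line, organ sets and each library left out.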

Additional observations from a re-analysis of the deposited data

Results flagged for a closer look

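In 17 sets of vegetative values, a library far from the other 6 was found 11 times. Most sets are genes or shares chosen on these same data, and many hold values at or near 0. How often such a gap would arise by chance is therefore not known. These sets share the same libraries and are not independent. In 9 of the 11 the library was Chiltepin-Leaf. It had the highest share of summed RPKM in flower genes (2.48%), in bud genes (0.651%) and in its 10 most abundant genes (17.4%). Its bud-gene share rested largely on 1 gene, Capana09g000038, at 5634 RPKM of a summed 1119022 RPKM. The median bud gene was at 0.363 RPKM there, against 0.0750 (HYL-Leaf) to 0.286 RPKM (ZL1-Leaf) in the other vegetative libraries. Chiltepin-Leaf also had the highest vegetative RPKM of Capana04g001678 (12.7), Capana08g000016 (5.53), Capana06g000289 (1.78), Capana08g002091 (0.628), Capana01g003342 (0.947) and Capana06g000489 (0.420). The other cases were ZL1-Leaf, with the highest share in open-flower genes (0.0423%), and ZL1-Stem, with 381 RPKM of Capana06g000460. Chiltepin-Leaf was also deeper than the other 6, and the part of depth or line in these values was not tested.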

How the results depend on the processing

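The number of genes higher in flowers stayed within 1.5 times 1640 under each single change of setting, from 1221 (without HYL) to 2293 (scaling) and from 1253 to 1948 with 1 library left out; with scaling and without Chiltepin-Leaf it was 2794. The number lower did not: 371 with median-of-ratios scaling, 568 with the line as a block, 161 without HYL, 2601 without chiltepin, 657 with Zunla 1 alone, 728 with leaf alone, and 115 to 3924 with 1 library left out. Below each of root, stem and leaf the number was 49 without the filter, 26 with scaling, 130 with the line as a block and 8 to 798 with 1 library left out, and above each of them it was 753 to 1230. Among the flower genes, 478 were 2-fold higher in bud and 221 in the open flower. Over all genes that passed the filter, 696 and 669 were 4-fold higher. Open-flower genes numbered 153 in the chiltepin list. The share of Zunla 1 rises also higher in chiltepin was 94.0% with scaling and 95.2% without the filter. Genes on in vegetative organs alone numbered 2 without Chiltepin-Leaf. The difference in the number of genes on was -929.6 at 5 RPKM (exact permutation p = 0.0833) and ranged from -178.5 to 53.00 with 1 library left out. The causes of these moves were not tested. Of 216 single-gene values under alternatives, 189 kept their call, 27 lost it and 0 changed sign. The labels link libraries across groups only by line, and the fit with line as a block uses that link. It is not a matched design, since HYL had no flower library and the lines differ in organs. With 1 library per organ and line, the spread between plants is unknown.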

Other observations

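Some genes were on in a single Zunla 1 flower stage, at 5 RPKM or more there and under 1 RPKM in the other stage and in all vegetative libraries. There were 76 such genes for the bud, with a median of 18.9 RPKM and a highest value of 324 RPKM, and 17 for the open flower, with a median of 15.1 RPKM and a highest value of 750 RPKM. By this definition at most 2 of the 10 libraries could reach 1 RPKM, so none of these genes passed the filter of 3 libraries and none was tested against vegetative organs. In the chiltepin flower mix, which was not used to choose them, 56 of the bud genes (73.7%) and 15 of the open-flower genes (88.2%) were at 1 RPKM or more. Their medians there were 2.51 and 3.38 RPKM. Of all 31426 genes, 19025 were at 1 RPKM or more in that library, which was also deeper than those of Zunla 1. The shares were not tested against this background.

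The recovered model lengths of the flower genes were near those of all genes tested, with medians of 1048 and 1011 bases (quartiles 663 to 1524 and 621 to 1539). The genes lower in flowers had a median of 1234 bases (776 to 1821). In the numbering of the gene IDs, 525 of the 1640 flower genes (32.0%) had another flower gene within 3 numbers, as did 284 of the 1164 genes lower in flowers (24.4%) among themselves. There were 12 runs of 3 or more flower genes with consecutive numbers, with 39 genes in all and the longest of 5, and 4 such runs with 13 genes among the falls. Longer lists give more neighbours, so these shares are not comparable between the lists. The shares and runs that randomly drawn lists of the same sizes would give were not computed. These numbers therefore do not show that either list is clustered. Neighbours with near-identical sequence could also share reads, and how the authors treated such reads is not given in the sources used here.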
